A study of Mus musculus with 12 samples.

Results

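The macrophage lineage transcription factors described here were 9 genes, Spi1, Runx1, Maf, Mef2a, Mef2c, Tfec, Mitf, Bhlhe40 and Myc, chosen by name from the 23361 gene symbols in the expression tables. Of these, 8 were found under their own symbol and 1, Spi1, under its older symbol Sfpi1, and each occupied 1 of the 23847 rows. All 9 were among the 11191 rows that reached 1 FPKM in 1 sample or more. FPKM counts sequenced fragments, divided by transcript length and by the mapped fragments of that sample, so that levels of different genes can be set side by side.

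The RNA-seq libraries were made from bone marrow-derived macrophages (BMDMs) of mice, and the 12 samples formed 4 groups of 3. All came from wild-type C57BL/6 mice aged 8 to 12 weeks, and all had been differentiated for 6 days in L929 cell supernatant, a source of the growth factor M-CSF. The control group received nothing further, the IL-4 group received IL-4 at 20 ng/ml for 24 h, the LPS group received LPS at 100 ng/ml for 3 h, and the IL-4+LPS group received IL-4 for 24 h and then LPS for 3 h. The LPS dose is that of the sample labels, and the study's methods give it as 100 nM instead. Whether the IL-4 samples were collected when LPS was added or at the end of the LPS exposure was not given in the sources used here.

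As background, macrophage identity rests on transcription factors that open the enhancers of myeloid genes and on factors that respond to signals on top of that landscape. PU.1, the product of Spi1, is the pioneer factor of the lineage, and RUNX1 acts with it in blood cell development. c-MAF is a large MAF factor of mature macrophages, MEF2 factors are targets of kinase and histone deacetylase signalling, and TFEC and MITF belong to the MiT/TFE family that binds lysosomal and osteoclast genes. BHLHE40 is a transcriptional repressor and MYC drives growth and ribosome production. IL-4 drives alternative polarization through STAT6, and LPS, a component of bacterial outer membranes, drives an inflammatory response through TLR4.

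The labelled cell type was checked against its markers. All 8 macrophage markers were expressed, and the T cell, B cell, fibroblast and erythroid markers stayed under 1 FPKM in every sample. All 7 neutrophil markers found reached 1 FPKM, as did 1 of 3 dendritic cell markers, 1 of 4 mast cell and basophil markers and 1 of 2 eosinophil markers. The macrophage markers summed to 19400 to 20800 FPKM in control, 7580 to 7800 with IL-4, 16800 to 17900 with LPS and 6850 to 7150 with IL-4+LPS. The lower sum with IL-4 was set mainly by Lyz2 (lysozyme), whose mean was 16100 FPKM in control and 4870 with IL-4. At an unadjusted p under 0.05 in limma, 7 of the 8 macrophage markers were lower with IL-4 than in control and 0 higher. Of all 11191 rows, 2887 were lower and 2189 higher by that measure. The neutrophil markers summed to 375 to 969 FPKM in control, 235 to 448 with IL-4, 568 to 1170 with LPS and 469 to 941 with IL-4+LPS, the eosinophil markers to 4.62 to 11.0, 2.05 to 5.18, 5.85 to 9.81 and 2.51 to 10.4 in the same order, and the mast cell and basophil markers to at most 2.18 in any sample. The dendritic cell markers summed to 0.184 to 0.279 FPKM in control and 2.18 to 3.03 with IL-4+LPS, mostly through Zbtb46, a factor of classical dendritic cells, while Flt3 and Xcr1 stayed under 1 FPKM. The part of these markers in the results was not tested. FPKM totals ran from 457583 to 495025 per sample. Relative depth, read from the smallest steps between low values, ran from 0.99 to 3.27 with control replicate 1 set to 1, while the absolute depth was unknown. Replicate 1 of all 4 groups lay on 1 side of the first component of the spread within groups (28.2% of that spread, scores of 15.5 to 33.3 against -18.6 to -4.45 for replicates 2 and 3). The study describes such data as coming from individual animals in more than 1 experiment, and which samples shared an experiment was not given in the sources used here. The values without replicate 1 are therefore given for each factor whose call they changed in the 5 contrasts described below, and for the gene lists and relatives described where they changed a count or call.

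Levels differed widely among the 9 factors. In control BMDMs, Spi1 was the highest at 239 ± 29.7 FPKM (SD, n = 3), which placed it at the percentile 97.8 of the expressed rows. Maf followed at 63.7 ± 0.967 FPKM, and then Mitf, Mef2a and Tfec at 26.2, 22.2 and 20.2 FPKM. The lowest were Runx1 at 12.3, Mef2c at 11.9, Myc at 8.8 and Bhlhe40 at 5.14 FPKM. Spi1 kept the first place in all 4 groups, but the places under it were exchanged. Bhlhe40 moved from the ninth place in control to the second with IL-4 and the eighth with LPS, Maf from the second to the eighth with IL-4, and Tfec from the fifth to the second in both LPS groups. The plot of FPKM by group shows these levels for each sample.

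**Figure D1:**
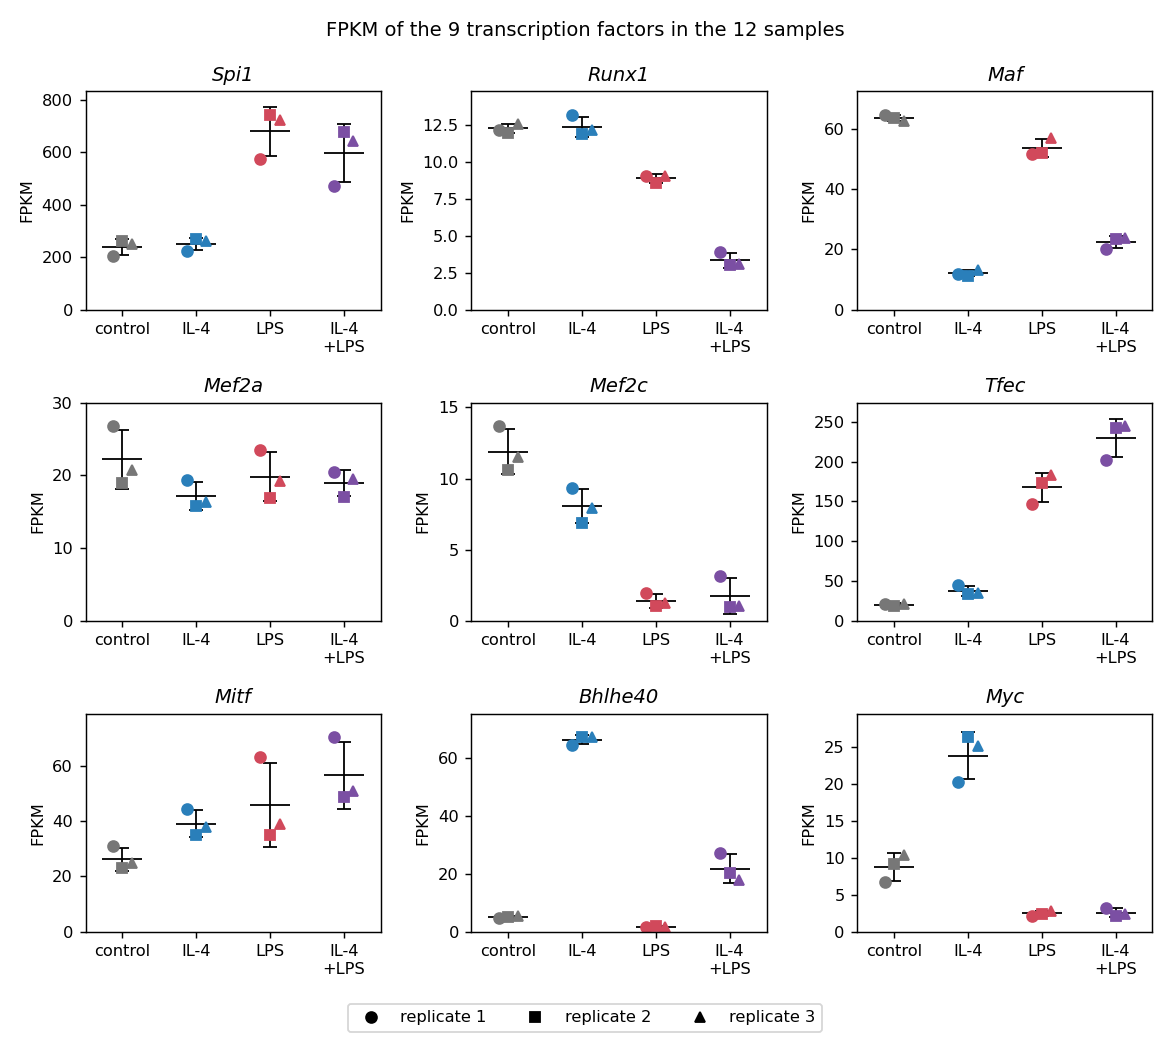
FPKM (linear axis from 0) of the 9 transcription factors by treatment group. Each symbol is 1 sample, with its shape giving the replicate number, and the horizontal bar and whiskers give the mean and SD of 3 samples. Spi1 and Tfec are high in both LPS groups, Bhlhe40 and Myc are highest with IL-4, and replicate 1 (circles) stands off for Mitf in the LPS group at 63.1 FPKM.

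The first question was how LPS alone altered the factors. Differences are given on the log2(FPKM + 1) scale, which understates the change of genes near 1 FPKM, with the standard error (SE) and the adjusted p of limma over all 11191 rows. After LPS, 3 of the 9 factors rose (Spi1, Tfec and Mitf), 5 fell (Runx1, Maf, Mef2c, Bhlhe40 and Myc) and Mef2a did not pass the threshold. Of all rows, 16.9% rose and 57.7% fell, so that a fall was the more common call in this contrast. The groups did not overlap for 8 of the 9 factors, beside 76.6% of all rows. The median difference was -0.24 over the factors and -0.44 over all rows. That shift of all rows shrank to -0.12 after quantile normalization and -0.14 after scaling each sample to its median, and the share of rises among all calls went from 22.6% to 40.2% and 40.0%. For each factor the difference between LPS and control is therefore also given relative to the median of all rows. As these were bulk samples, fewer cells expressing a gene and less RNA per cell could not be told apart.

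**Figure D2:**
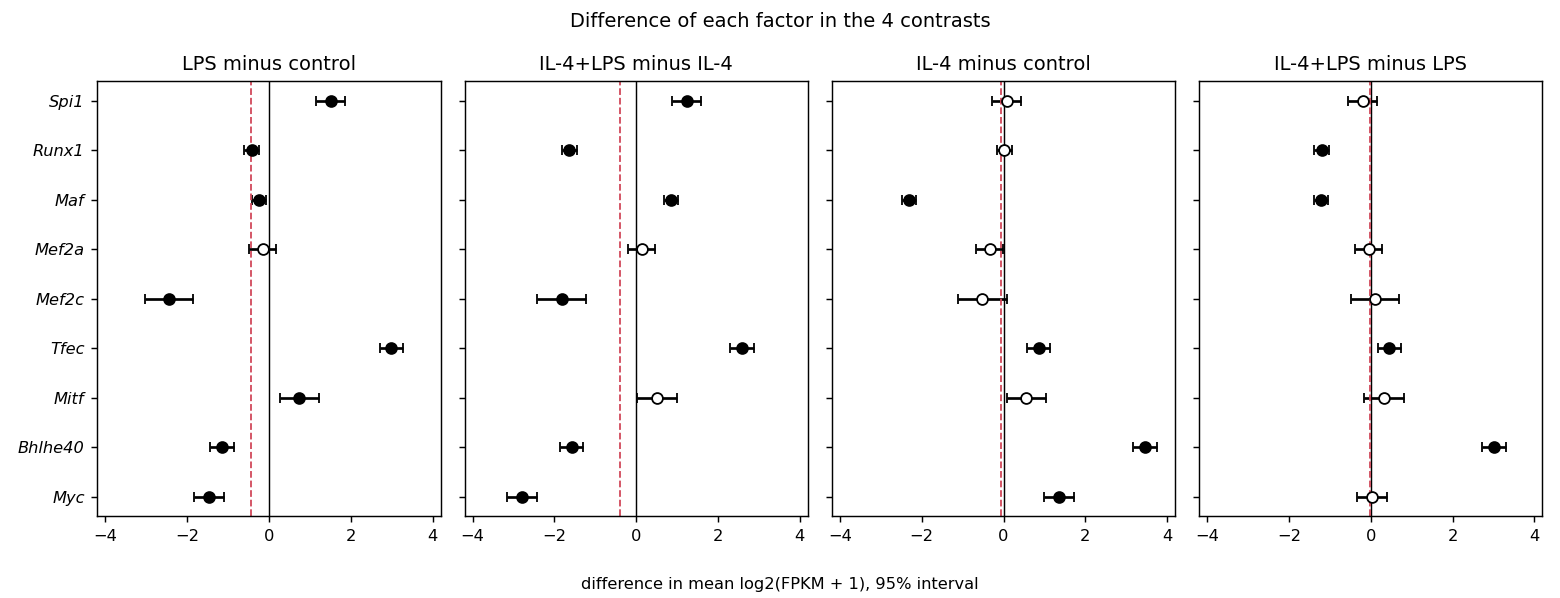
Difference in mean log2(FPKM + 1) of each factor in 4 contrasts, with 95% intervals. Filled circles passed an adjusted p of 0.05 in limma, open circles did not, the solid line marks 0 and the dashed line the median of all 11191 rows (-0.44 for LPS minus control). Tfec reaches 2.99 with LPS and Bhlhe40 3.46 with IL-4. The falls of Runx1 and Maf with LPS alone lie close to the dashed line, and the Maf value changes sign to 0.12 after median scaling.

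Spi1 lies at chr2:91096797-91115756 on the plus strand (mm10, as are all loci here). Its FPKM was 205, 261 and 251 in the control samples and 574, 744 and 725 after LPS. Every LPS sample exceeded every control sample, and the means differed 2.85-fold. The log2 difference was 1.51 (SE 0.157, adjusted p = 8.59e-06), or 1.95 relative to the median of all rows. With IL-4 alone Spi1 read 224, 268 and 262 FPKM, within reach of the control values, and the difference of 0.08 had a 95% interval from -0.27 to 0.42 (adjusted p = 0.747). In the IL-4+LPS samples it read 471, 677 and 643 FPKM, 2.38-fold above IL-4 alone (log2 difference 1.23, adjusted p = 4.46e-05). Its levels thus fell into 2 tiers, control with IL-4 and IL-4+LPS with LPS, and within neither tier did the neighbours differ beyond their spread. IL-4+LPS minus LPS was -0.20 (adjusted p = 0.384). Without replicate 1 of each group that difference was -0.16 and passed (adjusted p = 0.0238). In all 4 groups replicate 1 gave the lowest Spi1 value.

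Runx1, at chr16:92601466-92826066 on the minus strand, was steady in the groups without LPS, with 12.2, 12.0 and 12.6 FPKM in control and 13.2, 11.9 and 12.2 with IL-4. After LPS it read 9.05, 8.57 and 9.06 FPKM, below all control samples. After IL-4 and LPS together it read 3.9, 3.01 and 3.09 FPKM, lower again and apart from every other sample. The fall with LPS alone was -0.42 (SE 0.083, adjusted p = 0.000846), which was 0.02 relative to the median of all rows. It did not pass after quantile normalization (-0.07, adjusted p = 0.383) or median scaling (-0.09, adjusted p = 0.366). The fall from IL-4 to IL-4+LPS was -1.64 (adjusted p = 6.34e-08), a 3.73-fold difference of means. Against LPS alone, IL-4+LPS was 2.67-fold lower (-1.20, adjusted p = 2.79e-06). Of the exonic bases of Runx1 in GENCODE vM21, 0.881% overlap the antisense gene Gm26626, and the library kit did not mark strand. Cbfb, the non-DNA-binding partner of RUNX factors, had means of 36.9 FPKM in control, 41.2 with IL-4, 44.4 with LPS and 33.8 with both. It rose with LPS alone (0.26) and fell with LPS after IL-4 (-0.28, or 0.08 and not called after median scaling), and the 2 responses differed by -0.54 (adjusted p = 0.00276). Runx2 was low, at 1.37 FPKM in control, and fell with LPS by 0.87 on the log2 scale, while Runx3 did not reach 1 FPKM.

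Maf, at chr8:115703253-115706894 on the minus strand, read 64.7, 63.6 and 62.8 FPKM in control, where its SD was 1.52% of the mean, the smallest relative spread of the 9 factors in that group. IL-4 alone lowered it to 11.9, 11.2 and 13.1 FPKM, 5.28-fold below control. The log2 difference of -2.31 (SE 0.08, adjusted p = 2.7e-08) was the 66th lowest of the 11191 rows. LPS alone gave 51.8, 52.1 and 57.0 FPKM, a fall of 0.25 on the log2 scale (adjusted p = 0.0175) that lay 0.20 above the median of all rows. That call was lost without LPS replicate 1 (-0.22, adjusted p = 0.0513) or LPS replicate 2 (-0.22, adjusted p = 0.0547), and median scaling turned its sign (0.12, adjusted p = 0.267). The IL-4+LPS samples read 20.2, 23.5 and 23.9 FPKM, above IL-4 alone by 0.85 (adjusted p = 5.31e-06) and below LPS alone by 2.38-fold (-1.22, adjusted p = 1.98e-06). All 3 neighbouring pairs in the order IL-4, IL-4+LPS, LPS, control passed the threshold. Of its annotated exonic bases, 5.34% overlap the antisense gene Gm15655. That annotation spans chr8:115682942-115707794, wider than the deposited locus, so the share within the deposited locus was not determined.

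The small MAF factors, which lack a transactivation domain, included Maff, with means of 1.23 FPKM in control and 17.9 after LPS (3.10, adjusted p = 4.45e-07), and Mafk, with 9.98 and 18.6 FPKM (0.84, adjusted p = 5.56e-06). Mafg fell with IL-4 (-0.57, adjusted p = 0.00791), and its LPS difference was -0.18 (adjusted p = 0.246), or -0.31 without replicate 1 of every group (adjusted p = 0.00361). Of 5 genes listed as MAF targets, 4 were lower with IL-4, namely the complement genes C1qa (-1.32), C1qc (-0.75) and C1qb (-0.63) and the haptoglobin-haemoglobin receptor Cd163 (-0.34, not called after quantile normalization at -0.17), beside 21.0% of all rows. Il10, the fifth, had an IL-4 difference of -0.97 (adjusted p = 0.348), and without replicate 1 of every group it was -0.95 and passed (adjusted p = 0.00313). With LPS alone 1 of the 5 rose and 3 fell, beside 16.9% and 57.7% of all rows. These counts were 1 and 1 after median scaling and 1 and 4 without replicate 1. With LPS after IL-4, where Maf rose, 0 rose and 1 fell, beside 15.0% and 57.9%. These counts were 0 and 2 after quantile normalization, 2 and 1 after median scaling and 1 and 1 without replicate 1. Between IL-4+LPS and LPS 0 rose and 2 fell, beside 15.0% and 15.8%, or 0 and 4 without replicate 1.

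The MEF2 pair separated with LPS. Mef2a, at chr7:67233827-67372858 on the minus strand, read 26.8, 19.0 and 20.8 FPKM in control, 19.4, 15.8 and 16.4 with IL-4, 23.5, 16.9 and 19.2 with LPS and 20.4, 17.0 and 19.5 with IL-4+LPS. All 4 groups overlapped, and no pair of neighbours in their order differed beyond the spread. The LPS difference was -0.15 with an interval from -0.48 to 0.18, or 0.29 relative to the median of all rows, and it was 0.20 after median scaling. The IL-4 difference was -0.34 (adjusted p = 0.0964), and without replicate 1 it was -0.29 and passed (adjusted p = 0.0361). Of the exonic bases of Mef2a, 2.06% overlap the protein-coding gene Lysmd4 on the opposite strand. Mef2c, at chr13:83504034-83667079 on the plus strand, read 13.7, 10.6 and 11.5 FPKM in control and 9.32, 6.9 and 7.94 with IL-4. After LPS it read 1.97, 1.0 and 1.23 FPKM, and after IL-4 and LPS 3.16, 0.96 and 1.01, so that both LPS groups lay below all samples without LPS. The fall with LPS was 8.52-fold between means (-2.44, SE 0.268, adjusted p = 1.25e-05) and 4.71-fold after IL-4 (-1.82, adjusted p = 0.000123). It was -1.998 relative to the median of all rows with LPS alone and the 184th lowest difference of all rows. The IL-4 difference of -0.52 did not pass (adjusted p = 0.161), but passed without replicate 1 of each group (-0.52, adjusted p = 0.00414) and without IL-4+LPS replicate 1 alone (adjusted p = 0.026), a library that enters only the estimate of the spread here.

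Mef2c was the factor with the largest fall with LPS and Tfec the one with the largest rise, and the deposited table gives each of them 1 transcription start that coincides with the RefSeq start. Their promoter windows from RefSeq (GRCm38.p6), 250 bases before and 50 bases from the start on, are therefore shown, 5′ to 3′ on the strand of the gene. Capitals mark matches, on either strand, to the PU.1 core GAGGAA, the RUNX core TGTGGT, the AP-1 site TGANTCA, the STAT6 site TTCNNNNGAA, the E-box CACGTG, the MEF2 site CTANNNNTAG or an NF-kB site. No 2 matches overlap in them.
Mef2c, chr13:83503784-83504083, plus strand: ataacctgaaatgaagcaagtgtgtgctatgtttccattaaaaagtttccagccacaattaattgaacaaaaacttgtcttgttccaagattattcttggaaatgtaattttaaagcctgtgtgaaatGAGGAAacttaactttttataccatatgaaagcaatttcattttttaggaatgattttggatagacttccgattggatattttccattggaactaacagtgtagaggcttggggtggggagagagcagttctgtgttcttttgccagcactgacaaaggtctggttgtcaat
Tfec, chr6:16898392-16898691, minus strand: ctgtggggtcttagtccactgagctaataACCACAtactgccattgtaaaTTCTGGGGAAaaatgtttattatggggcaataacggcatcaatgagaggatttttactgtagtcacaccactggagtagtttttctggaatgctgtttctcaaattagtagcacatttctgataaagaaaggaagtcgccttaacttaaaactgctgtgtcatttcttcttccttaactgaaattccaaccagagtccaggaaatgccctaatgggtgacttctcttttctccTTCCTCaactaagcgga
The Mef2c window shown holds 1 match, to the PU.1 core, which starts at position -122 relative to the start base. Of the other 2 RefSeq windows of Mef2c, 1 holds a PU.1 match at -186 and 1 an AP-1 match at -137. The Tfec window holds a RUNX match at -221, a STAT6 match at -200 and a PU.1 match at 33. Among all 32817 RefSeq windows of this length, 28.3% hold a PU.1 core match, 16.8% a RUNX match and 6.94% a STAT6 match. Windows were given for 5 of the 9 factors (10 windows in all, for Runx1, Mef2a, Mef2c, Tfec and Mitf). The Mef2a window holds PU.1 matches at -114 and -103 and a MEF2 match at -2, a motif found in 3.69% of all windows. For Runx1, 1 window holds RUNX matches at 28 and 36 and an E-box match at -71, and 1 a PU.1 match at -46. For Mitf, 1 window holds a RUNX match at -81 and 1 an NF-kB match at -177. Of all windows, 7.81% hold an AP-1 match, 7.15% an E-box match and 8.46% an NF-kB match. These matches describe the letters only.

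Among the relatives of the MEF2 pair, Mef2d fell with LPS from 29.4 ± 0.879 to 8.63 ± 0.444 FPKM (-1.66, adjusted p = 1.08e-08), and Mef2b did not reach 1 FPKM. Of the class IIa histone deacetylases, which bind and repress MEF2 factors, Hdac5 fell from 37.0 ± 2.93 to 4.02 ± 0.512 FPKM (-2.92, adjusted p = 6.81e-09), and Hdac7 by 0.57 on the log2 scale, a call lost after quantile normalization (-0.06) and median scaling (-0.26). Hdac4 fell by 0.25, but its value was 0.00 after median scaling and turned to a rise of 0.34 after quantile normalization (adjusted p = 0.00551). All 4 tested genes of this list were called lower, beside 57.7% of all rows, and 2 of the 4 after either scaling. Of 3 listed MEF2 targets, Jun fell with LPS from 43.8 to 6.29 FPKM (-2.62, adjusted p = 7.55e-08), Nr4a1 fell by 1.31, and Klf2 was not called. With IL-4 alone Jun rose to 78.7 FPKM (0.83, adjusted p = 0.00105), Klf2 rose by 0.67 and Nr4a1 fell by 1.68.

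Tfec, at chr6:16833381-16898441 on the minus strand, encodes the MiT/TFE factor largely restricted to macrophages. It read 21.4, 18.2 and 20.9 FPKM in control and 44.7, 33.7 and 34.4 with IL-4. After LPS it read 147, 173 and 183 FPKM, and after IL-4 and LPS 202, 242 and 245, with no overlap between any 2 groups. The rise with LPS was 8.32-fold between means (2.99, SE 0.128, adjusted p = 1.78e-08), or 3.44 relative to the median of all rows, and the rise with IL-4 was 1.86-fold (0.86, adjusted p = 0.000523). LPS after IL-4 raised it 6.11-fold over IL-4 alone (2.59, adjusted p = 5.23e-08). The step from LPS to IL-4+LPS was 1.37-fold (0.45, adjusted p = 0.0221). That step did not pass without LPS replicate 1 (0.36, adjusted p = 0.0783), without IL-4+LPS replicate 2 (0.41, adjusted p = 0.0754), without IL-4+LPS replicate 3 (0.40, adjusted p = 0.0788) or after quantile normalization (0.33, adjusted p = 0.0902). From control to IL-4+LPS the means differed 11.4-fold.

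Mitf, at chr6:97807058-98021358 on the plus strand with 3 transcription starts in the deposited table, rose less and varied more. It read 30.8, 23.1 and 24.7 FPKM in control, 44.3, 34.8 and 37.9 with IL-4, 63.1, 35.1 and 38.8 with LPS and 70.3, 48.5 and 50.7 with IL-4+LPS. All 9 treated samples exceeded the highest control sample, while the IL-4 and LPS groups overlapped, as did LPS and IL-4+LPS. The rise with LPS was 0.74 (SE 0.218, adjusted p = 0.00971), or 1.19 relative to the median of all rows. The LPS difference was 0.49 without LPS replicate 1 (adjusted p = 0.0298), and the call was lost in Tukey's test on the 4 groups. The rise from control to IL-4+LPS was 1.07 (adjusted p = 0.00105). No pair of neighbours in the order control, IL-4, LPS, IL-4+LPS passed the threshold. The IL-4 difference of 0.56 (adjusted p = 0.0675) passed without LPS replicate 1, which enters only its spread (adjusted p = 0.02), and without replicate 1 of every group it was 0.59 (adjusted p = 0.000723). IL-4+LPS minus IL-4 was 0.51 (adjusted p = 0.0547). It was 0.44 without replicate 1 of every group (adjusted p = 0.00105), and it passed without LPS replicate 1 (adjusted p = 0.0151), without LPS replicate 2 (adjusted p = 0.0464) and after median scaling (0.87, adjusted p = 0.00486). IL-4+LPS minus LPS was 0.33 (adjusted p = 0.292), 0.58 without LPS replicate 1 (adjusted p = 0.0367) and 0.41 without replicate 1 of every group (adjusted p = 0.00347). The 3 starts cannot be separated in a value per gene.

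The balance within each pair was read as the ratio of FPKM in the same sample. Tfec over Mitf was 0.693, 0.79 and 0.849 in control and 1.01, 0.968 and 0.908 with IL-4. After LPS the ratio was 2.34, 4.93 and 4.72, and after IL-4 and LPS it was 2.88, 5.0 and 4.83. Mitf was thus the more abundant of the pair in all 3 control samples and Tfec in all 6 samples that received LPS. Mef2a over Mef2c had a mean of 1.85 ± 0.0932 in control and 2.15 ± 0.126 with IL-4, against 14.8 ± 2.51 with LPS and 14.5 ± 6.99 with IL-4+LPS. In both LPS groups replicate 1 gave the lowest value of both ratios.

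**Figure D3:**
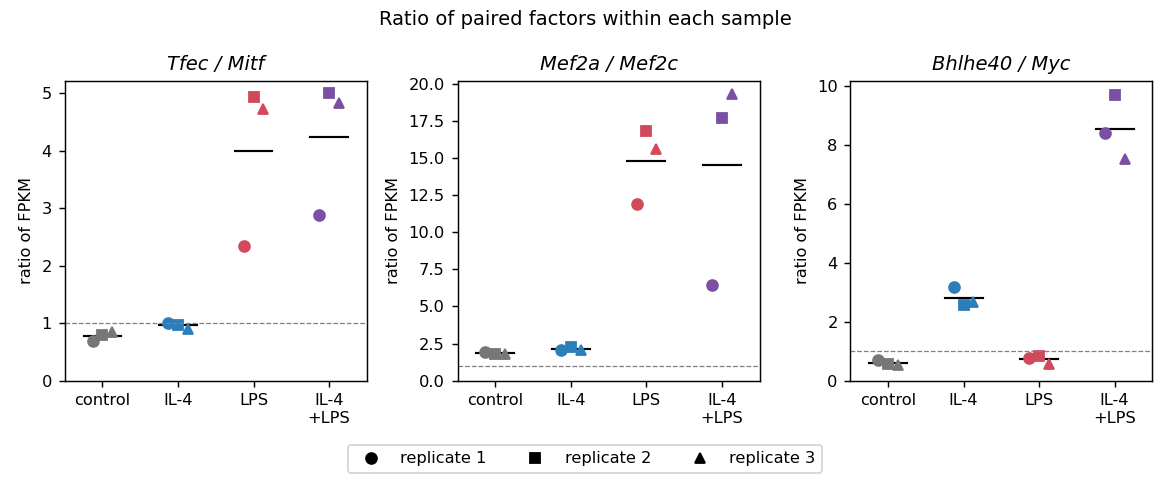
Ratio of FPKM within each sample (linear axes from 0) for Tfec over Mitf, Mef2a over Mef2c and Bhlhe40 over Myc. Symbols are samples, shapes are replicate numbers, horizontal bars are means of 3 samples and the dashed line marks a ratio of 1. Tfec over Mitf has a mean of 0.777 in control and 4.24 with IL-4+LPS, and Bhlhe40 over Myc is highest with IL-4+LPS at 8.54.

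The rise of Tfec and Mitf with LPS was not shared by the rest of the family. Tfeb, the main activator of lysosomal genes, read 31.9 ± 2.6 FPKM in control and 38.0 ± 3.04 with IL-4, but 3.11 ± 2.16 after LPS and 3.33 ± 2.26 after IL-4 and LPS (-3.12 for LPS, adjusted p = 1.92e-05). Tfe3 fell with LPS from 63.0 ± 1.69 to 43.3 ± 7.11 FPKM (-0.54, adjusted p = 0.00577), a call lost after median scaling (-0.18, adjusted p = 0.249). In control BMDMs the 4 family members stood, by mean FPKM, in the order Tfe3, Tfeb, Mitf, Tfec, and after IL-4 and LPS in the order Tfec, Mitf, Tfe3, Tfeb. The genes for folliculin and its partners, which control the cytoplasmic retention of MiT/TFE factors, fell too, Flcn from 30.9 to 4.51 FPKM (-2.55), Fnip1 from 16.2 to 3.83 (-1.85) and Fnip2 from 44.5 to 4.35 (-3.09). All 5 genes of this list were lower in both LPS contrasts, beside 57.7% of all rows for LPS alone and 57.9% for LPS after IL-4, except Tfe3 with LPS alone after median scaling.

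Of 17 genes listed as MiT/TFE targets, 16 were tested. With LPS 13 were lower and 2 higher, beside 57.7% and 16.9% of all rows. Their median difference was -0.86 beside -0.44 over all rows. After median scaling 13 were still lower and 3 higher, beside 4454 and 2966 of the 11191 rows, with a median of -0.49 beside -0.14. The 2 that rose were Acp5, the osteoclast acid phosphatase, from 5.33 to 29.3 FPKM (2.15, adjusted p = 0.000216) and Sqstm1, the autophagy receptor p62, from 430 to 1680 FPKM (1.96, adjusted p = 3.62e-08). Uvrag, an autophagy gene, fell by 2.0 and the sialidase gene Neu1 by 1.60. With IL-4 alone 4 rose and 4 fell, beside 16.0% and 21.0% of all rows, and 6 and 6 without replicate 1 of every group. The rises included Atp6v0d2, a subunit of the proton pump, from 163 to 524 FPKM (1.72, adjusted p = 0.000669) and Ctsk, cathepsin K, from 13.2 to 37.7 FPKM (1.46, adjusted p = 0.00016). In IL-4+LPS minus IL-4, 13 of the 16 were lower and 3 higher, beside 57.9% and 15.0% of all rows. After median scaling 8 were lower and 3 higher there, beside 4057 and 2629 of the 11191 rows. Between IL-4+LPS and LPS, 7 of the 16 were higher and none was lower in limma, beside 15.0% of all rows higher and 15.8% lower. The counts were 5 and 0 after quantile normalization, 8 and 0 at an unadjusted p under 0.05, and 9 and 0 without replicate 1.

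**Figure D4:**
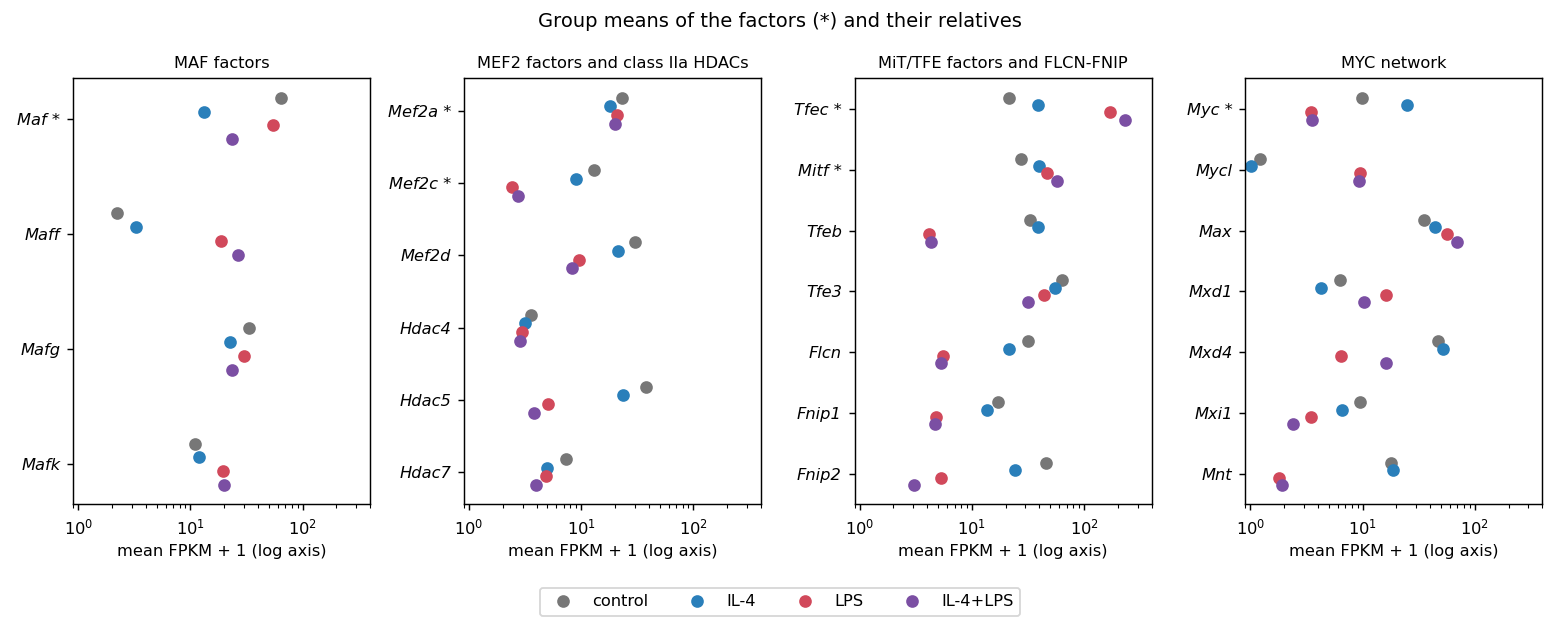
Group means of FPKM + 1 (log axis) of the factors, marked with an asterisk, and of their relatives, with 1 colored point per group of 3 samples. Hdac5, Tfeb, Fnip2 and Mnt lie far lower in both LPS groups, whereas Tfec lies far higher. Maf is lowest with IL-4, at 12.1 FPKM.

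The second question was how IL-4 alone altered the factors. With IL-4, 3 of the 9 factors rose (Bhlhe40, Myc and Tfec), 1 fell (Maf) and 5 did not pass. Of all rows, 16.0% rose and 21.0% fell, and the medians were 0.08 over the factors and -0.05 over all rows. The control samples of this contrast are the same as those of LPS minus control. Groups did not overlap for 6 of the factors, beside 51.6% of all rows. Without replicate 1 of every group 7 of the 9 factors passed, with Mef2a, Mef2c and Mitf added, and the calls over all rows went from 37.0% to 50.9%.

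Bhlhe40, at chr6:108660629-108666925 on the plus strand, had the largest rise. It read 4.71, 5.18 and 5.51 FPKM in control and 64.4, 67.2 and 67.1 with IL-4, a 12.9-fold difference of means. The log2 difference of 3.46 (SE 0.131, adjusted p = 4.15e-08) was the 29th highest of the 11191 rows. With LPS alone Bhlhe40 read 1.69, 2.03 and 1.62 FPKM, lower than control (-1.14, adjusted p = 1.72e-05, and -0.70 relative to the median of all rows, or -0.57 after quantile normalization, where it still passed). With IL-4+LPS it read 27.3, 20.4 and 17.8 FPKM, 3.04-fold below IL-4 alone (-1.58, adjusted p = 1.98e-06) and 12.3-fold above LPS alone (3.02, adjusted p = 1.08e-07). All 4 groups were apart, in the order LPS, control, IL-4+LPS, IL-4, and all 3 neighbouring pairs passed. Its close relative Bhlhe41 did not show the IL-4 rise, with 7.76 FPKM in control and 5.51 with IL-4 (-0.43, adjusted p = 0.0607). Without replicate 1 of every group it was called lower with IL-4 (-0.45, adjusted p = 0.00978). It fell with LPS to 1.75 FPKM (-1.68, adjusted p = 4.8e-06). Of the exonic bases of Bhlhe40, 2.51% overlap the antisense gene 0610040F04Rik.

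Myc, at chr15:61985341-61990361 on the plus strand, read 6.75, 9.21 and 10.4 FPKM in control and 20.2, 26.3 and 25.1 with IL-4. The rise was 2.71-fold (1.35, SE 0.167, adjusted p = 0.000149). LPS took it to 2.2, 2.43 and 2.83 FPKM, a 3.54-fold fall (-1.48, adjusted p = 1.55e-05, and -1.03 relative to the median of all rows). IL-4+LPS gave 3.25, 2.1 and 2.36 FPKM, which overlapped the LPS samples. The fall from IL-4 was 9.28-fold (-2.80, adjusted p = 1.94e-07), the 83rd lowest of all rows for that contrast. IL-4+LPS minus LPS was 0.02 with an interval from -0.35 to 0.39. Bhlhe40 and Myc thus both rose with IL-4 and fell with LPS, but in the IL-4+LPS group Bhlhe40 stayed above control by 4.25-fold (1.88, adjusted p = 4.05e-07) while Myc lay below it by 3.42-fold (-1.45, adjusted p = 1.62e-05, or -0.91 after quantile normalization, where it still passed).

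In the MYC network, Max, the obligate partner of MYC, rose from 34.5 FPKM in control to 42.7 with IL-4 (0.30, adjusted p = 0.0322) and to 55.8 with LPS (0.67, adjusted p = 8.52e-05). Mycl was listed at 0.218 FPKM in control and at 8.46 after LPS (2.86, adjusted p = 4.48e-05), so that after LPS it stood above Myc, whose mean was 2.49 FPKM. Mycn did not reach 1 FPKM. The antagonists that compete for Max moved in both directions with LPS. Mnt fell from 17.0 to 0.787 FPKM (-3.33, adjusted p = 2.97e-09), Mxd4 from 45.5 to 5.42 (-2.86, adjusted p = 9.03e-09) and Mxi1 from 8.38 to 2.48 (-1.42, adjusted p = 1.24e-06), whereas Mxd1 rose from 5.3 to 15.0 (1.30, adjusted p = 5.95e-05). Of the 12 tested genes of this list, 3 rose and 7 fell with LPS, beside 16.9% and 57.7% of all rows. The counts were 4 and 4 after quantile normalization, 4 and 6 after median scaling and 3 and 8 without replicate 1 of every group. Among the other falls, those of Mxd3, Fbxw7 and Mlxip did not pass after quantile normalization, nor that of Mlxip after median scaling.

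The 21 listed MYC targets are mostly genes of the nucleolus, ribosome assembly and growth metabolism. With IL-4, 11 of them rose and none fell in limma (16 and 0 at an unadjusted p under 0.05, and likewise without replicate 1), beside 16.0% and 21.0% of all rows, and their median difference was 0.54 beside -0.05. Srm, spermidine synthase, rose from 9.49 ± 2.46 to 21.3 ± 4.6 FPKM (1.10, adjusted p = 0.0104), and Gnl3, nucleostemin, from 11.5 ± 1.56 to 21.8 ± 0.999 (0.87, adjusted p = 0.00165). Ldha, lactate dehydrogenase, rose by 0.79 and the ribonucleoprotein gene Nop58 by 0.78. With LPS alone 4 rose and 5 fell, beside 16.9% and 57.7% of all rows, a balance that turned to 8 and 1 after quantile normalization, 9 and 2 after median scaling and 8 and 7 without replicate 1 of every group. Cdk4 fell from 66.9 to 30.4 FPKM (-1.11, adjusted p = 8.53e-07), while Ccnd2, cyclin D2, was listed at 0.122 FPKM in control and 7.21 after LPS (2.80, adjusted p = 2.14e-05) and Odc1 rose by 1.29. From IL-4 to IL-4+LPS 12 fell and 1, Ccnd2, rose, beside 57.9% and 15.0% of all rows. The falls numbered 6 after quantile normalization, 5 after median scaling and 14 without replicate 1. Between IL-4+LPS and LPS, where Myc differed by 0.02, 5 rose and 1 fell, beside 15.0% and 15.8% of all rows. These counts were 4 and 1 after quantile normalization, 5 and 2 after median scaling and 9 and 4 without replicate 1. In the interaction, described below, 0 were higher and 5 lower, beside 4.58% and 4.63% of all rows. There the counts were 1 and 7 after quantile normalization and 1 and 12 without replicate 1.

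The third question was whether IL-4 pretreatment altered the response to LPS. In the contrast IL-4+LPS minus IL-4, 3 of the 9 factors rose (Spi1, Maf and Tfec) and 4 fell (Runx1, Mef2c, Bhlhe40 and Myc), where 15.0% of all rows rose and 57.9% fell. The medians were 0.14 over the factors and -0.41 over all rows. Between the 2 groups that received LPS, IL-4+LPS minus LPS, 2 rose (Bhlhe40 and Tfec), 2 fell (Runx1 and Maf) and 5 did not pass, beside 15.0% and 15.8% of all rows. The interaction, the difference between the LPS responses of IL-4-treated and untreated cells, was called for 3 factors, lower for Runx1 and Myc and higher for Maf. Of all rows 4.58% were higher and 4.63% lower in the interaction.

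The interaction of Runx1 was -1.215 (SE 0.118, adjusted p = 0.000229), from a response of -0.42 without IL-4 and -1.64 after it. Maf had an interaction of 1.092 (SE 0.114, adjusted p = 0.000343), with -0.25 without IL-4 and 0.85 after it. For Myc the value was -1.328 (SE 0.236, adjusted p = 0.00585), with -1.48 and -2.80. The 3 cases differed in where the levels ended. Myc came to the same range after LPS with and without IL-4, from starting levels 2.71-fold apart. Runx1 started from the same level in control and IL-4, where the difference of 0.02 had an interval from -0.17 to 0.20, and ended 2.67-fold lower after IL-4 and LPS than after LPS alone. Maf started 5.28-fold apart and ended 2.38-fold apart.

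The interactions of the other 6 factors did not pass. The closest were Bhlhe40 (-0.44, adjusted p = 0.18) and Tfec (-0.41, adjusted p = 0.2). The Bhlhe40 interaction passed without IL-4+LPS replicate 1 (-0.60, adjusted p = 0.0138) and after quantile normalization (-0.91, adjusted p = 0.00878). Without replicate 1 of every group, where the calls over all rows went from 9.2% to 25.6%, 6 interactions passed, with Bhlhe40 (-0.59, adjusted p = 0.0201), Spi1 (-0.21, adjusted p = 0.0481) and Tfec (-0.32, adjusted p = 0.0495) added. Mef2a, Mef2c and Mitf had intervals from -0.18 to 0.75, from -0.22 to 1.46 and from -0.92 to 0.45, all of which include 0.

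**Figure D5:**
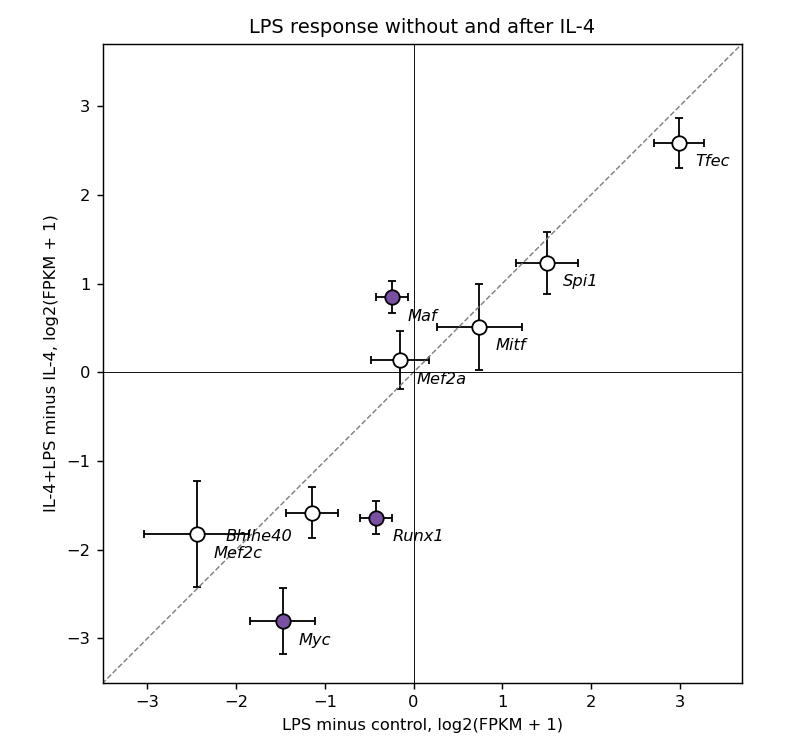
LPS response of each factor without IL-4 (horizontal axis, LPS minus control) and after IL-4 (vertical axis, IL-4+LPS minus IL-4), as differences in log2(FPKM + 1) with 95% intervals. The dashed line marks equal responses, and filled circles passed an adjusted p of 0.05 in limma for the difference between the responses. Runx1 and Myc lie below the line and Maf above it. The LPS value of Maf without IL-4, -0.25 here, turns to 0.12 after median scaling.

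Of 3 tested partners and relatives of PU.1, Irf8 and Irf4 passed for the interaction and Spic did not. Irf8, which pairs with PU.1 in macrophages, had means of 79.5 ± 5.95 FPKM in control, 47.4 ± 6.01 with IL-4, 32.0 ± 1.23 with LPS and 179 ± 40.7 with IL-4+LPS. It fell with LPS alone (-1.29, adjusted p = 2.35e-05) and rose with LPS after IL-4 (1.88, adjusted p = 1.82e-06), an interaction of 3.16 (SE 0.22, adjusted p = 2.62e-05). Irf4, the related factor of alternative polarization, had means of 1.36, 19.9, 0.129 and 3.75 FPKM in the same order, the same order of groups as Bhlhe40, with a rise of 3.15 with IL-4 (adjusted p = 5.26e-09) and an interaction of -1.07 (adjusted p = 0.0007). Spic, the PU.1 relative of red pulp macrophages, rose with LPS from 13.0 to 32.9 FPKM (1.33, adjusted p = 0.0061) and fell with IL-4 to 1.74 (-2.31, adjusted p = 0.000636), and its interaction was -0.44 (adjusted p = 0.657).

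The 16 listed PU.1 targets moved in both directions. With LPS 5 rose and 9 fell, beside 16.9% and 57.7% of all rows, with 3 and 9 after quantile normalization, 6 and 5 after median scaling and 4 and 10 without replicate 1 of every group. With IL-4 5 rose and 5 fell, beside 16.0% and 21.0% of all rows, with 5 and 8 without replicate 1. Cybb, the oxidase subunit gp91phox, rose with LPS from 181 to 622 FPKM (1.79, adjusted p = 1.43e-06) and Msr1, a scavenger receptor, from 133 to 392 (1.54, adjusted p = 0.000217), while Tlr4, the LPS receptor, fell from 23.0 to 9.72 (-1.20, adjusted p = 0.00166). With IL-4 the Fc receptor gene Fcgr1 fell from 65.6 to 16.3 FPKM (-1.94, adjusted p = 1.64e-05) and Lyz2 fell by 1.73, while Csf2rb, the shared beta chain of the GM-CSF receptor, rose from 74.4 to 193 FPKM (1.36, adjusted p = 4.37e-07). The direction of each list is given without a test of the list, and the targets were taken from general knowledge of these factors, not from binding data.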

How the data were processed

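Poly-A RNA from 12 BMDM samples (4 groups of 3) had been sequenced as paired reads from an unstranded kit. Per the labels and the study's methods, the authors mapped the reads to mm10 with TopHat2 2.0.7 and computed FPKM with Cufflinks 2.0.2 (versions from the submitters' processing notes). The deposited FPKM values were given per gene, 1 table per sample. The annotation was not given in the sources used here. No counts were analysed, so no counting interval could be formed.

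Values were taken as log2(FPKM + 1). Rows with at least 1 FPKM in at least 1 sample were kept (11191 of 23847). Using limma 3.58.1 (R 4.3.3), 1 mean per group was estimated from the 12 samples together (eBayes with trend, Benjamini-Hochberg adjustment within each contrast, threshold 0.05), and checked on simulated data. The factors and the gene lists were chosen with earlier results of these data known, and support nothing on their own. All 9 factors are described in each contrast. Relatives named are a part of the family lists, and 1 further gene was left out of the lists and is not reported here. Targets named were up to 4 per list and contrast with the largest difference among those past the threshold with 1 sign in all 3 replicate numbers, or the whole list where it was short. The nearest genes were the 3 with the smallest distance in profile for factors whose group means span at least 1 log2 unit. The study describes individual animals in more than 1 experiment, but no source used here ties a sample to either, so that p-values measure the spread between these samples. Same-numbered samples were not shown to be paired. Promoter windows and motifs were read from RefSeq (GRCm38.p6), and overlaps from GENCODE vM21. Alternatives were another pseudocount, other filters, quantile normalization, median scaling, no trend, only the compared groups, the replicate number as a block, replicates 2 and 3 only, unadjusted p, Tukey's test, a 2-fold minimum and each sample left out in turn.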

Additional observations from a re-analysis of the deposited data

Results flagged for a closer look

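The LPS response of 3 factors differed between cells with and without IL-4 pretreatment, by a test of the difference itself in limma. The value was -1.215 for Runx1 (interval from -1.48 to -0.95), 1.092 for Maf (0.84 to 1.34) and -1.328 for Myc (-1.85 to -0.81). All 3 kept their sign and passed under quantile normalization (-1.13, 1.37 and -1.45) and median scaling (-1.25, 1.07 and -1.33). For Maf, the sign of the response without IL-4 depended on the scaling, and that of the difference did not.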

How the results depend on the processing

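Of 63 results (9 factors in 7 contrasts), 41 passed the threshold, and 34 of these kept their sign and their side of it under every alternative that gave a value. Of the 19 sign changes, none passed the threshold. With the replicate number as a block, 7 factors passed for IL-4 minus control instead of 4, and in all contrasts 10 further results passed and none was lost. Calls over all rows rose too, from 37.0% to 49.9% for IL-4 and from 9.2% to 20.0% for the interaction. The deviations of same-numbered samples in different groups correlated at 0.124 on average (0.00236 to 0.386) and exceeded 0.1 in 11 of 18 pairs. The 36 pairs with unlike numbers averaged -0.0596, which largely mirrors the first value because deviations sum to 0 within each group. Of the 12 samples, 7 correlated best with their own number. These values do not settle whether a shared number means pairing, so the block was kept as an alternative only. Without replicate 1 of every group, 7 factors passed for IL-4 and 6 for the interaction instead of 3. With unadjusted p, 5 passed for the interaction, where the calls over all rows went from 9.2% to 24.2%. With a 2-fold minimum, 5 passed for LPS instead of 8, and the calls over all rows went from 74.6% to 26.8%. Leaving out each sample in turn gave 7 to 8 factors for LPS, 4 to 5 for IL-4, 7 to 8 for IL-4+LPS minus IL-4, 3 to 4 for IL-4+LPS minus LPS, 3 to 4 for the interaction, and 14 to 16 of the 27 neighbouring pairs of levels (15 with all samples). Over all rows these fits called 69.3% to 76.2% for LPS, 27.2% to 40.3% for IL-4 and 67.1% to 74.2% for IL-4+LPS minus IL-4. The shares were 23.8% to 33.5% for IL-4+LPS minus LPS and 5.76% to 11.1% for the interaction. The alternatives for the order of levels and for the gene lists were added after seeing the data. Tukey's test and the fit on the compared groups alone could not be made for the interaction.

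Median scaling turned the sign of LPS minus control for Maf (0.12) and Mef2a (0.20) and of IL-4+LPS minus control for Mef2a (0.16). Quantile normalization turned Mef2a with LPS (0.015) and Spi1 with IL-4 (-0.042). Without replicate 1 of every group, IL-4+LPS minus LPS was 0.015 for Mef2a, -0.092 for Mef2c and -0.17 for Myc, and IL-4 minus control was -0.024 for Runx1. Leaving out single samples turned small differences, which then ran from -0.16 to 0.068 for Mef2a, from -0.25 to 0.29 for Mef2c and from -0.11 to 0.12 for Myc in IL-4+LPS minus LPS, from -0.023 to 0.045 for Runx1 and from -0.030 to 0.16 for Spi1 in IL-4 minus control, and for Mitf from -0.070 to 0.34 in LPS minus IL-4 and from -0.40 to 0.019 in the interaction. The cause was not tested. Mitf with LPS was the 1 call lost in Tukey's test. Depth in fragments is unknown, which limits values near 1 FPKM such as those of Mef2c, Myc and Bhlhe40 after LPS.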

Other observations

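For 8 of the factors, the genes with the most similar profiles over the 12 samples were sought, by the root mean square distance of log2(FPKM + 1) profiles centred on their means. These are descriptions, as each list was searched over all tested rows. Nearest to Tfec was Cd274, the gene for the inhibitory ligand PD-L1, at 0.17, with means of 21.1 FPKM in control, 42.3 with IL-4, 187 with LPS and 225 with both, against 20.2, 37.6, 168 and 230 for Tfec. Phldb1 (0.19) and Olr1, an oxidized lipoprotein receptor (0.24), followed. Nearest to Bhlhe40 were Ptgs1, cyclooxygenase 1 (0.30), Lipn (0.30) and Batf3 (0.32), a factor whose means were 7.71, 66.4, 2.31 and 24.4 FPKM. Nearest to Maf were Cd302 (0.25), the chemokine gene Pf4 (0.30) and the lectin receptor gene Clec12a (0.31).

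Nearest to Runx1 were Rmnd5a (0.14), Inpp5f (0.17) and Fam212a (0.18), and nearest to Mef2c were Nbr1, an autophagy receptor (0.14), Impact (0.17) and Zmynd8 (0.17). Nbr1 had means of 34.6, 26.4, 5.9 and 6.77 FPKM. Spi1 was closest to the corepressor gene Bcor (0.11), Ncoa5 (0.11) and the chaperone gene Stip1 (0.13). Myc was closest to Gramd4 (0.22), Sema4b (0.23) and Lpxn (0.29), and Mitf to Pou3f1 (0.17), Arrdc4 (0.19) and Herpud1 (0.21). Pou3f1 was near the floor, with means of 0.183 FPKM in control, 0.427 with IL-4, 0.561 with LPS and 1.25 with both. Mef2a was left out because its group means span less than 1 log2 unit.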
